A study of Mus musculus with 4 samples.

Results

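Fibroblasts that carried a transcript of the Hoxc cluster were compared with fibroblasts of the same tumours that carried a transcript of the gut mesoderm genes Foxf2 or Nkx2-3. The wells were chosen on these measured transcripts. To be kept, a well needed 3000 or more transcripts, no more than 30% of them mitochondrial, and at least 30 per 10000 transcripts of the fibroblast genes Dcn and Col1a1. A kept well with a transcript of any Hoxc gene and none of Foxf2 or Nkx2-3 was placed on the Hoxc side, and a well with Foxf2 or Nkx2-3 and no Hoxc gene on the gut-code side. Of 1536 wells, 555 were kept and 343 took a side, 131 on the Hoxc side and 212 on the gut-code side. All wells came from 1 group of samples: cells sorted as cancer-associated fibroblasts from untreated APTKA tumours that had been transplanted into the colon of female C57BL6J mice. There were 4 tumours with 1 plate each. Whether these grew in separate mice, the age of the mice and the gate of the sort are not stated in the labels. The p-values therefore rest on how the difference between the sides varied from plate to plate. The test also pooled the estimate of this variation over genes. Each well was meant to hold 1 cell, read by SORT-seq, which counts mRNA molecules by short random tags.

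Hox genes encode homeodomain transcription factors that record position along the body axis. They lie in clusters in which genes at one end are used toward the head and genes at the other end toward the tail, and fibroblasts of adult tissues keep much of the Hox pattern of the place where they formed. The Hoxc cluster is known for its use in the trunk, limbs and skin. The mesoderm of the gut wall is instead marked by the forkhead genes Foxf1 and Foxf2, which answer to hedgehog signals from the epithelium, and by the homeobox gene Nkx2-3, which is needed for the gut and spleen stroma.

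The genes of the Hoxc cluster used here lie together on chromosome 15 of the mouse assembly GRCm38, from Hoxc13 at chr15:102921103-102928814 to Hoxc4 at chr15:103018934-103036852, on the plus strand, and the annotation of Hoxc5 overlaps those of its neighbours. Foxf2 lies at chr13:31625816-31631403 and Nkx2-3 at chr19:43612325-43615892, both on the plus strand. The 250 bases before the annotated starts of 5 genes are shown, in the direction of the gene, because these genes either placed wells on the gut-code side (Foxf2, Nkx2-3) or led one of the sides (Mmp13 and Mmp10 on the gut-code side, Ctla2a on the Hoxc side). Capitals mark matches to 6 motifs: TGANTCA (AP-1), TGATNNAT (HOX with PBX), GTAAACA (forkhead), TNAAGTG (NKX2) and GGGCGG (GC box) on both strands, and TATAAA on the strand of the gene.
Foxf2: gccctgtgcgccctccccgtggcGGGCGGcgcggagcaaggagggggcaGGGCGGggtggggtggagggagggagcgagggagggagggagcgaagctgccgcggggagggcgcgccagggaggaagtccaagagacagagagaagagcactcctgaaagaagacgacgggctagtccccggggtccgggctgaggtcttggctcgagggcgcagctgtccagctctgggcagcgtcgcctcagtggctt
Nkx2-3: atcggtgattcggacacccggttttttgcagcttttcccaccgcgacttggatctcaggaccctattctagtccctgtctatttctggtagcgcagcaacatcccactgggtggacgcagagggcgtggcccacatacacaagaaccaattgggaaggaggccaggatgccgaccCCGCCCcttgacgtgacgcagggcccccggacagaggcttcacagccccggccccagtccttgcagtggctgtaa
Mmp13: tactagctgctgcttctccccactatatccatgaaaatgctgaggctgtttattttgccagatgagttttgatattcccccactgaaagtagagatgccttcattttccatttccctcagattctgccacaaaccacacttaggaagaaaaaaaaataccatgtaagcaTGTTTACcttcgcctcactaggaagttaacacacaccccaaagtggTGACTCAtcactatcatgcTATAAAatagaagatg
Mmp10: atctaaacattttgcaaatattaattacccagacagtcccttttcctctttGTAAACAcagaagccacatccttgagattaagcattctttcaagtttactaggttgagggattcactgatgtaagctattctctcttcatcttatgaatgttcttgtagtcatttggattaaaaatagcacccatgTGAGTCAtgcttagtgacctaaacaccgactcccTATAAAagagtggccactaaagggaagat
Ctla2a: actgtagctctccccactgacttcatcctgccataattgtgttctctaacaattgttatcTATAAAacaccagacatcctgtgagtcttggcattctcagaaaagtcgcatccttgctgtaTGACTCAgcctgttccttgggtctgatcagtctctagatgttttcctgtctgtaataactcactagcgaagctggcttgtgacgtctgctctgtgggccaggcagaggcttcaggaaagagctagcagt
The sequences are from RefSeq on GRCm38.p6 (chr13:31625566-31625815, chr19:43612075-43612324, chr9:7272264-7272513, chr9:7502092-7502341 and, on the minus strand, chr13:60936626-60936875). Foxf2 and Nkx2-3 matched the GC box, at 2 places and at 1, and hold 21 and 14 CG pairs, where the median over 32851 promoters of this length was 6. Mmp13, Mmp10 and Ctla2a hold 1, 1 and 3 CG pairs, and each has an AP-1 match and a TATA match. Their TATA matches start 16, 29 and 190 bases before the start of the gene. Spp1, which led the Hoxc side too, is not shown. It had a TATA match 211 bases before its start and no AP-1 match. Over the same 32851 promoters, 6.75% held the AP-1 motif, 7.68% the HOX with PBX motif, 3.17% the forkhead motif, 10.1% the NKX2 motif, 7.59% TATAAA and 32.7% the GC box. The AP-1 match of Mmp13 starts 35 bases before the start of the gene and that of Mmp10 starts 63 bases before it. Mmp13 and Mmp10 also hold a forkhead match, 81 and 199 bases before their starts. A match of these letters is a description and not a measured binding site.

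Depth differed between the plates. The plates held 612734 transcripts in tumour 1 and 2727191 to 3165550 in the other tumours. Spike-in RNA made up 44% of the transcripts counted in tumour 1, spike-ins included, against 5.54 to 8.59% in the other tumours. The kept wells of tumour 1 had a median mitochondrial share of 13.8% against 5.03 to 6.02%. The file name of tumour 1 carries another run code than the other 3, so run, plate and tumour cannot be told apart there. It gave 27 kept wells, 1 of them on the Hoxc side, and its table lists only 2 Hoxc genes, Hoxc4 and Hoxc8. Comparisons between the sides therefore used tumours 2 to 4, with 130 Hoxc wells and 191 gut-code wells, and tumour 1 is given beside them. At the gate, the wells just inside had 30.8, 35.8 and 36.5 transcripts of Dcn and Col1a1 per 10000 in tumours 2 to 4, and those just outside had 29.5, 27.4 and 26.7.

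Both sides were found in each tumour, in different proportions. The Hoxc side held 1 of 27, 54 of 193, 37 of 179 and 39 of 156 kept wells in tumours 1 to 4, or 3.70% (exact binomial 95% limits, by Clopper-Pearson, 0.0937 to 18.97), 28% (21.8 to 34.9), 20.7% (15 to 27.3) and 25% (18.4 to 32.6), a mean of 19.3 ± 10.8% (SD, n = 4). The gut-code side held 21, 55, 79 and 57 wells, which is 77.8% (57.7 to 91.4), 28.5% (22.2 to 35.4), 44.1% (36.7 to 51.7) and 36.5% (29 to 44.6), a mean of 46.7 ± 21.7%. Tumour 1 had the lowest share of Hoxc wells and the highest share of gut-code wells. Without tumour 1 the means were 24.55% on the Hoxc side and 36.39% on the gut-code side. Intervals cover counting error only. Transcripts of both codes were found in 0, 9, 7 and 11 wells, and of neither in 5, 75, 56 and 49. These shares follow from the rule and from depth: wells with neither code had medians of 6691 to 7743 transcripts in tumours 2 to 4, against 12022 to 16558 on the Hoxc side and 11652 to 14096 on the gut-code side. Hoxc wells were the deeper side in tumour 2 (16558 against 11652) and close to the other side in tumour 3 (12022 against 11778).

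**Figure D1:**
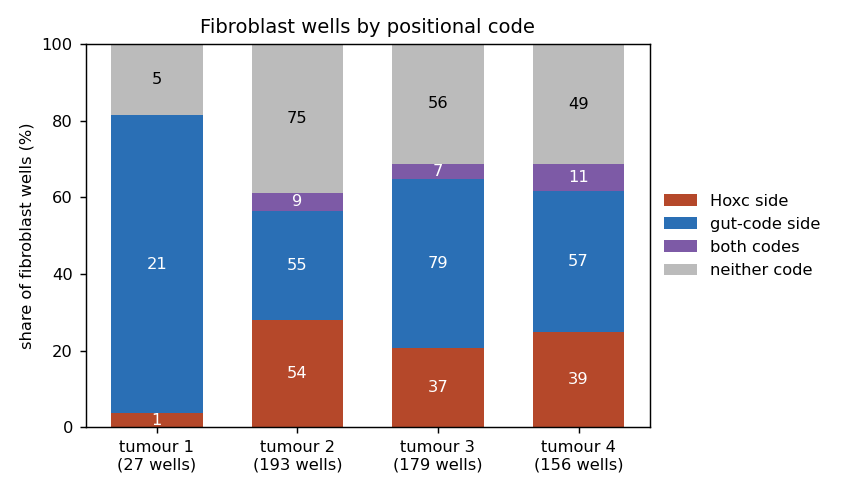
Share of the kept fibroblast wells (percent, vertical axis) in each class of positional code, with 1 bar per tumour and the number of wells printed in each segment. The Hoxc side holds 54, 37 and 39 wells in tumours 2 to 4 and 1 well in tumour 1.

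Wells with both codes were fewer than the separate shares of the codes would give. The observed number was 0.431, 0.331 and 0.505 times the number expected from the shares of wells with each code in tumours 2 to 4 (mean 0.422 ± 0.0871, n = 3). This ratio is a property of the values that chose the sides and was not tested. With every well thinned to 3000 tagged molecules it was 0.0745 on average. That mean rests on 1, 0 and 0 wells with both codes in tumours 2 to 4, against 4.48, 5.5 and 3.82 expected.

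Hoxc10, from the part of the cluster used toward the tail, was the most detected Hoxc gene and was found in 85 of the 131 Hoxc wells. Hoxc6 was found in 43, Hoxc8 in 39 and Hoxc9 in 33 wells. Hoxc11, Hoxc4, Hoxc5 and Hoxc13 were found in 10, 8, 7 and 3 wells. Hoxc10 stood at 0.543, 0.758 and 0.851 transcripts per 10000 on the Hoxc side of tumours 2 to 4, and Hoxc6 at 0.120, 0.511 and 0.296. The signal per well was small: 37 Hoxc wells held 1 Hoxc transcript, 40 held 2 and 54 held 3 or more, and 64 wells held at least 2 different Hoxc genes. On the gut-code side Nkx2-3 was found in 159 of 212 wells and Foxf2 in 133, both in 80. Nkx2-3 stood at 1.05, 1.36 and 0.888 per 10000 in tumours 2 to 4 and at 1.89 in tumour 1. Of the gut-code wells, 74 held 1 transcript of the code and 90 held 3 or more. All of these values chose the wells and carry no test.

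Counts were summed over the wells of each side of each tumour (607007 to 1122805 transcripts per sum) and compared gene by gene by edgeR's quasi-likelihood test with the tumour as a block. Of 8009 genes tested, 178 were higher on the Hoxc side and 238 lower at a Benjamini-Hochberg adjusted p under 0.05, which is 2.22% and 2.97% of the genes, and 1281 had an unadjusted p under 0.05. The median log2 fold change over all tested genes was 0.01. All 416 called genes moved the same way in each of the 3 tumours, as did 38.9% of all tested genes. The values of the 2 sides did not overlap for 383 of the called genes and for 16.1% of all tested genes. The test with the tumour as a block favours such genes. A sum over wells cannot tell fewer cells with a transcript from fewer transcripts per cell, so the number of wells with a gene is given for the main genes. The fit had 2 residual degrees of freedom per gene, and edgeR adds to them by pooling variance estimates over genes. The calls leaned on tumour 3. When tumour 3 was left out, 1 gene was called higher and 1 lower, while without tumour 2 the counts were 380 and 388.

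**Figure D2:**
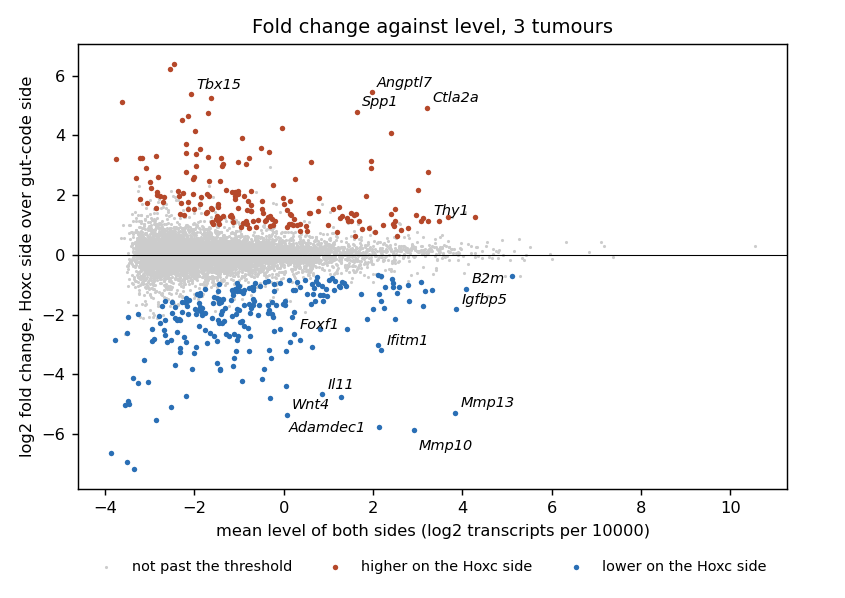
Fold change of the summed counts (log2, Hoxc side over gut-code side, vertical axis) against the mean level of both sides (log2 transcripts per 10000, horizontal axis), 1 point per tested gene over 3 tumours. The 178 higher genes (red) and 238 lower genes (blue) pass an adjusted p of 0.05, and Mmp10, Adamdec1 and Wnt4 are the lowest of the labelled genes.

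Several transcription factors of the body wall, limbs and skin were higher in Hoxc wells. Of 14 tested genes of this list, 7 were higher, 2 lower and 5 did not pass, with a median log2 fold change of 1.14 against 0.01 over all tested genes. Tbx15, a T-box factor of the skeleton and dermis, had 0.359, 0.478 and 0.543 transcripts per 10000 on the Hoxc side of tumours 2 to 4 and 0.0247, 0.00891 and 0 on the gut-code side. It was found in 52 of 130 Hoxc wells and 3 of 191 gut-code wells, with 112 transcripts against 3 (ratio 42.9, 95% counting interval 14.3 to 211, adjusted p = 0.0013, edgeR). The gut-code wells of tumour 1 held none. Prrx1, a homeobox factor of limb and craniofacial mesenchyme, stood at 2.72, 3.72 and 4.03 against 1.45, 0.793 and 1.51 (log2 fold change 1.60, SE 0.25, adjusted p = 0.0078). Six2 (3.31), a homeobox factor of kidney and craniofacial development, the odd-skipped gene Osr2 (1.90), Ebf1 (1.29) and the mesenchymal factor Twist1 (1.0) were also higher. The sides overlapped for Osr2, which ran from 0.543 to 2.52 on the Hoxc side and from 0.285 to 0.632 on the other.

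The 2 lower members of that list were Pitx1 and Tbx2. Pitx1, a homeobox factor known for specifying the hindlimb, stood at 0.0276, 0.0659 and 0.0617 on the Hoxc side and at 1.16, 2.08 and 1.42 on the gut-code side (log2 fold change -4.80, SE 0.27, adjusted p = 6.1e-05, edgeR). It was found in 11 of 130 Hoxc wells and 128 of 191 gut-code wells, and reached 3.43 in the gut-code wells of tumour 1. Tbx2, a T-box repressor, was lower by a log2 fold change of -1.34 (SE 0.29).

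Of 8 tested gut mesoderm transcription factors outside the rule, 3 were lower in Hoxc wells and none higher (median -1.41). Foxf1, the close relative of Foxf2, stood at 0.193, 0.412 and 0.345 per 10000 against 2.07, 2.0 and 2.07 (log2 fold change -2.66, SE 0.25, adjusted p = 0.00098, edgeR). The gut-code levels of Foxf1 lay within a narrow range, and tumour 1 had 2.26. Tcf21, a basic helix-loop-helix factor of visceral mesenchyme, stood at 0.0184, 0.115 and 0.136 against 1.26, 2.97 and 1.69 (-4.40, SE 0.35), and at 7.92 in tumour 1. Sox6, known from fibroblasts next to the epithelium of the villus, had 2 transcripts against 58 (ratio 25.2 toward the gut-code side, counting interval 6.68 to 213). Hlx, a homeobox gene of gut mesenchyme, missed the threshold with a fold change of -2.12 and an adjusted p of 0.051. Isl1 (0.41) and Gata6 (0.19) did not pass the test. None of 7 tested partners of Hox proteins, the Pbx and Meis family, passed it (median -0.26).

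**Figure D3:**
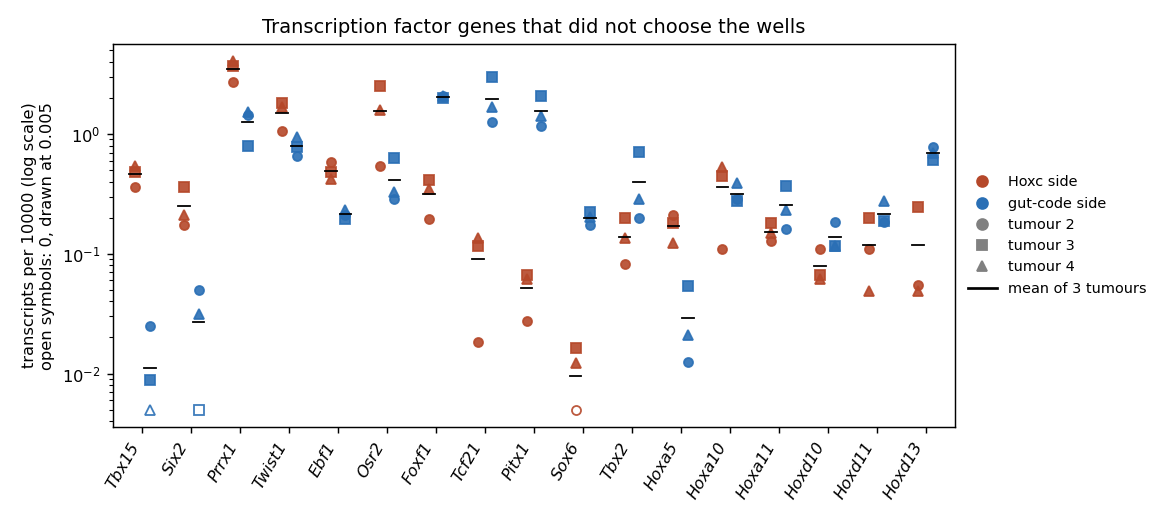
Level of 17 transcription factor genes that did not choose the wells (transcripts per 10000, logarithmic axis) on the Hoxc side (red) and gut-code side (blue) of tumours 2, 3 and 4, with the mean of the 3 tumours as a bar and a value of 0 drawn as an open symbol at 0.005. Tbx15 and Pitx1 stand apart in opposite directions, and the sides overlap for Hoxa10.

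Tested Hox genes of the other clusters went in both directions, and an order along the clusters was not tested. Of 3 tested Hoxa genes and 3 tested Hoxd genes, Hoxa5 was higher in Hoxc wells and Hoxd13 lower, and no Hoxb gene had enough transcripts to be tested. Hoxa5, from the middle of its cluster, stood at 0.212, 0.181 and 0.123 per 10000 against 0.0124, 0.0534 and 0.0211 (log2 fold change 2.57, SE 0.52, adjusted p = 0.025, edgeR). It was found in 24 of 130 Hoxc wells and 7 of 191 gut-code wells. Hoxd13, the last gene of its cluster and a marker of the hindgut and of the tips of the limbs, stood at 0.0553, 0.247 and 0.0493 against 0.779, 0.606 and 0.698 (-2.65, SE 0.45, adjusted p = 0.012). It was found in 10 Hoxc wells and 75 gut-code wells, and 1 of the 10 Hoxc wells held 10 of their 25 transcripts. Hoxa10 (0.17, SE 0.37), Hoxa11 (-0.58, SE 0.31), Hoxd10 (-0.72, SE 0.39) and Hoxd11 (-0.82, SE 0.47) did not pass the test, with adjusted p-values of 0.43 to 0.88. The direction of Hoxa10 turned in 4 of the alternatives. Among genes with too few transcripts for the test, Hoxd9 had 19 transcripts against 3 and Hoxb7 had 2 against 23, named after their values were seen.

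Genes of the gut lamina propria and crypt niche were mostly lower in Hoxc wells. Of 23 tested genes, 14 were lower in Hoxc wells and 2 higher, with a median log2 fold change of -2.08. Adamdec1, a metalloprotease typical of the gut lamina propria, stood at 0.0553, 0.247 and 0.160 per 10000 on the Hoxc side and at 6.42, 13.3 and 5.99 on the gut-code side (-5.76, SE 0.29, adjusted p = 3.0e-05, edgeR). The highest Hoxc well held 3 transcripts of Adamdec1, while 55 of 191 gut-code wells held 10 or more. Wnt4, a signal of cells beneath the epithelium, stood at 0.0368, 0.0659 and 0.0247 against 1.14, 3.71 and 1.29 (-5.35, SE 0.28). Bmp7 (-4.15) and Bmp5 (-3.83), ligands that hold back stem cell growth at the crypt top, were lower as well. The 2 higher genes of the list were Cd81, a tetraspanin (1.37), and Fabp4, a fatty acid binding protein (3.23).

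Signals of the WNT and BMP families were divided between the sides. Of 24 tested ligands and antagonists, 11 were lower in Hoxc wells and 4 higher (median -0.63). Bmp4, a BMP ligand of gut mesenchyme, stood at 0.912, 3.66 and 1.81 against 6.09, 13.1 and 8.01 (-2.14, SE 0.20, adjusted p = 0.00099, edgeR). The higher genes were 3 secreted antagonists and 1 ligand. Sfrp4, which binds WNT proteins, stood at 8.55, 18.8 and 20.1 against 5.95, 1.34 and 1.74 (2.76, SE 0.60, adjusted p = 0.034). Its values came closest in tumour 2. Sfrp2 (1.35), Fst, which binds activin (1.89), and the ligand Wnt9a (1.54) were the others.

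Matrix proteases were lower in Hoxc wells in several cases. Of 19 tested proteases and inhibitors, 5 were lower in Hoxc wells and 1 higher. Mmp13, a collagenase of wounds and remodelling bone, stood at 0.608, 0.873 and 0.567 per 10000 against 28.7, 27.3 and 27.4 (-5.28, SE 0.20, adjusted p = 1.6e-05, edgeR). The gut-code wells of tumour 1 held none. Mmp10, a stromelysin whose promoter is shown beside that of Mmp13, stood at 0.239, 0.231 and 0.210 against 10.9, 11.9 and 21.6 (-5.86, SE 0.26, adjusted p = 2.5e-05). Mmp10 was found in 40 of 130 Hoxc wells (30.8%) and 75 of 191 gut-code wells (39.3%), and 1 gut-code well held 825 of 4260 transcripts. For Mmp13 the sides differed in the number of transcripts per well more than in how many wells held any. It was found in 73 of 130 Hoxc wells (56.2%) and 101 of 191 gut-code wells (52.9%). Of these, 25 gut-code wells and 1 Hoxc well held 10 or more, 18 gut-code wells held 100 or more, and the highest held 803. In both sides most wells with the transcript held few copies: 56 Hoxc wells and 60 gut-code wells held 1 or 2. Timp3, an inhibitor of matrix proteases (-1.22), and Serpine2, an inhibitor of serine proteases (-1.83), were lower, and Adamts1 was higher (1.33). Serpine2 was found in a larger share of Hoxc wells (60%) than of gut-code wells (55.5%).

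**Figure D4:**
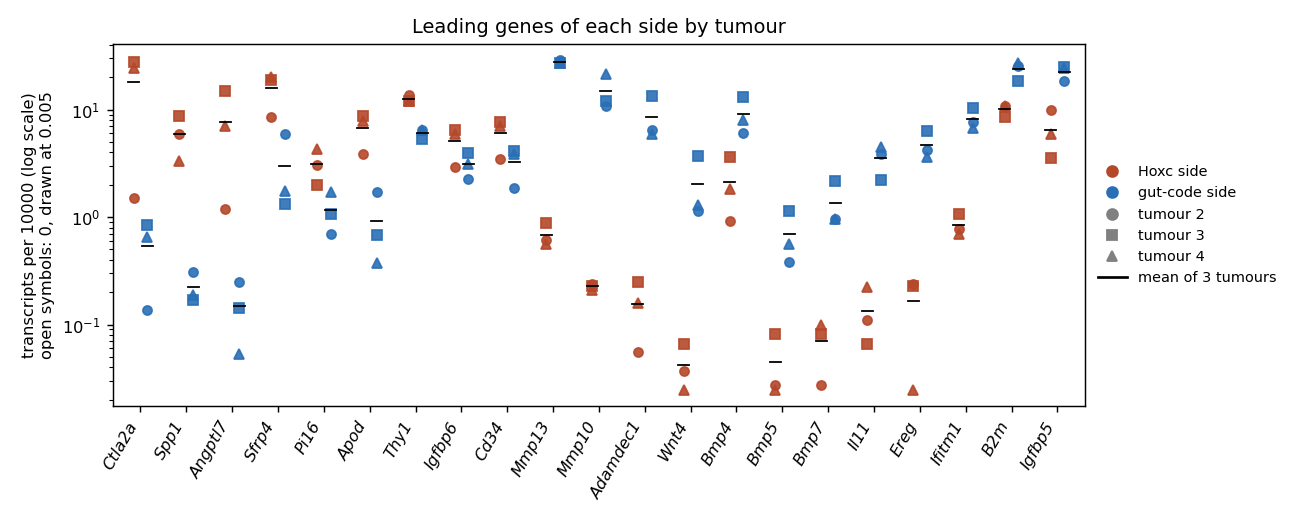
Level of 21 genes in the summed wells of each side (transcripts per 10000, logarithmic axis) in tumours 2, 3 and 4, Hoxc side in red and gut-code side in blue, with the mean of the 3 tumours as a bar. Mmp13 lies between 27.3 and 28.7 on the gut-code side and below 1 on the Hoxc side, while Ctla2a spreads from 1.52 to 27.8 on the Hoxc side.

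Some collagen processing genes were higher and some basement membrane genes lower in Hoxc wells. Of 19 tested processing and cross-linking genes 5 were higher, none lower and 14 did not pass (median 0.31). They included Adamts2, which trims the ends of procollagen, at 5.08, 8.93 and 8.73 against 2.76, 4.02 and 4.14 (1.13, SE 0.15, adjusted p = 0.0035, edgeR), the prolyl hydroxylase subunit P4ha3 (1.45), the lysyl oxidase Loxl3 (1.17) and the lysyl hydroxylase Plod1 (1.03). Of 16 interstitial collagen genes tested, 1 passed: Col7a1, which forms the fibrils that anchor epithelium, was lower (-3.07). Of 16 basement membrane genes 6 were lower, with the laminin chains Lama5 (-3.71) and Lamb1 (-1.09) and the collagens Col4a5 (-2.91) and Col18a1 (-2.14), and Nid2 was higher (1.54). Of 21 contractile genes 4 were lower and none higher, with Csrp1 (-1.80), Fblim1 (-1.69), Vcl (-0.86) and Tpm1 (-0.81), which bind actin or link it to adhesions.

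Growth factor and immune genes differed in small numbers. Of 19 growth factor genes 3 were lower in Hoxc wells: Ereg, a ligand of the EGF receptor, at 0.239, 0.231 and 0.0247 against 4.17, 6.34 and 3.60 (-4.77, SE 0.37, adjusted p = 0.00047, edgeR), Nrg1 (-2.60) and Hgf (-2.19). Of 18 cytokine and chemokine genes 2 were higher and 2 lower. Ccl19, which draws lymphocytes and dendritic cells, stood at 0.976, 1.22 and 1.65 against 0.309, 0.0178 and 0.0634 (3.56), and Cxcl10, an interferon-induced chemokine, was higher too (3.11), with 298 of its 679 Hoxc transcripts in 1 well. The IL-6 family cytokine Il11 stood at 0.111, 0.0659 and 0.222 against 3.87, 2.20 and 4.46 (-4.67, SE 0.24), and the B cell chemokine Cxcl13 was lower (-3.81). Il11 was found in 17.7% of Hoxc wells and 30.9% of gut-code wells, and in tumour 4 in 28.2% and 28.1%. Of the gut-code transcripts, 1 well held 175 of 982 for Il11 and 1 well held 140 of 392 for Cxcl13. Of 23 genes of the IL-1 and NF-kB pathway, the decoy receptor Il1r2 (3.11) and the regulator Nfkbiz (0.87) were higher, and the IL-33 receptor Il1rl1 (-3.01) and the adhesion gene Vcam1 (-1.90) lower. Il1rl1 was found in 56 of 130 Hoxc wells (43.1%) and 92 of 191 gut-code wells (48.2%). Of its 2264 gut-code transcripts 1 well held 446. The JAK-STAT3 list gave 1 higher and 1 lower gene of 20: Saa3, an acute-phase protein, at 11.2, 18.9 and 9.20 against 3.12, 3.75 and 2.24 (2.17), and the receptor Lifr (-1.68). Of the 3106 Saa3 transcripts of the Hoxc side 1 well held 617, and in tumour 3 fewer of the Hoxc wells held any (35.1% against 40.5%).

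Of 25 interferon and MHC class I genes, 4 were lower in Hoxc wells and none higher, while the median of the list was -0.09. Ifitm1, a membrane protein that restricts viral entry, stood at 0.774, 1.07 and 0.703 against 7.68, 10.4 and 6.71 (-3.19, SE 0.16, adjusted p = 3.0e-05, edgeR). The other 3 make up the class I antigen-presenting complex. B2m, its light chain, stood at 10.9, 8.58 and 10.8 against 25.6, 18.6 and 27 (-1.13, SE 0.14), and the heavy chains H2-D1 (-1.02) and H2-K1 (-0.93) were lower in each tumour. Of 11 complement genes 2 were lower, among them C4b (-1.19). Hc, which encodes a complement component, was not in that list and is given below among the higher genes. Of 21 TGF-beta genes, the receptor Tgfbr2 (0.82) and Lrrc15, a marker of matrix-making CAFs (1.5), were higher and Tgfbi (-2.84) and Smad6 (-2.0) lower.

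**Figure D5:**
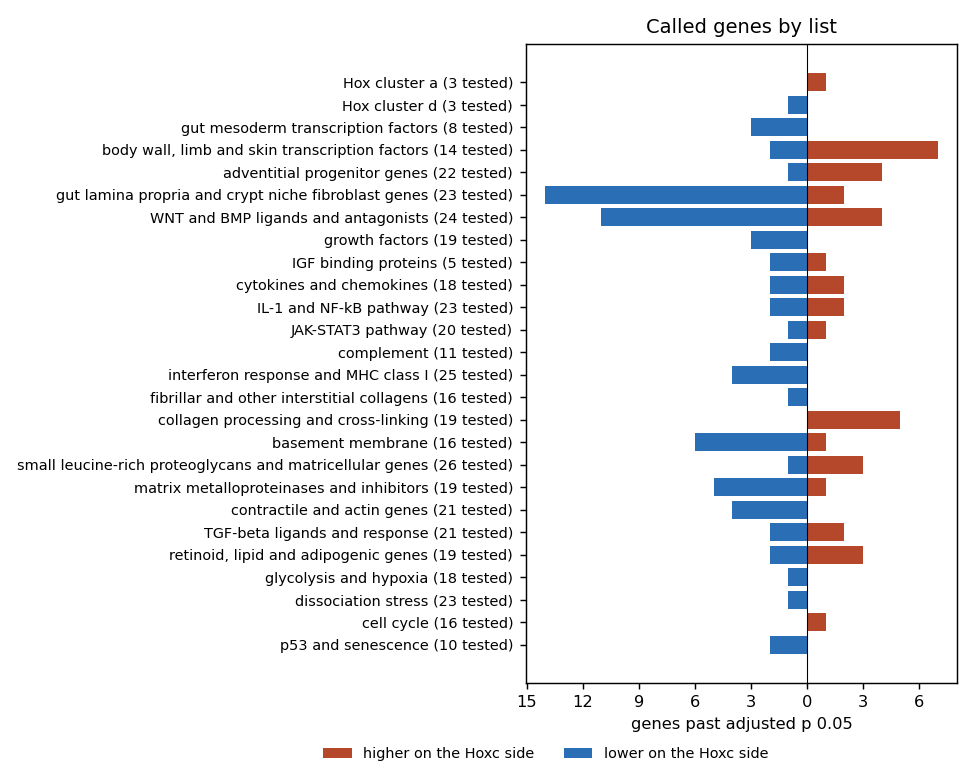
Number of genes that passed an adjusted p of 0.05 (horizontal axis) in each list with at least 3 tested genes and 1 call, drawn to the right where higher and to the left where lower on the Hoxc side. The number of tested genes stands beside each list name, and lists of cell type markers are left out. Gut lamina propria and crypt niche genes have 14 lower and 2 higher, and body wall, limb and skin transcription factors 7 higher and 2 lower.

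The genes with the largest changes toward the Hoxc side were secreted proteins and enzymes in several cases. Ctla2a, a cysteine protease inhibitor, stood at 1.52, 27.8 and 24.3 per 10000 in Hoxc wells of tumours 2 to 4 and at 0.136, 0.837 and 0.655 in gut-code wells (4.92, SE 0.31, adjusted p = 0.00013, edgeR). It was low in tumour 2, and few wells carried most of it: 59 of 130 Hoxc wells held any, 9 held 100 or more, and 1 held 745 of the 3828 transcripts. Angptl7, a secreted angiopoietin-like protein, stood at 1.18, 14.8 and 7.05 against 0.247, 0.142 and 0.0529 (5.44, SE 0.79, adjusted p = 0.0058). Spp1, the matrix phosphoprotein osteopontin, stood at 5.88, 8.71 and 3.35 against 0.309, 0.169 and 0.190 (4.79, SE 0.31), with 1439 transcripts in 32 Hoxc wells and 62 in 28 gut-code wells. Few wells carried it: 24 of the 32 were in tumour 2, 5 in tumour 3 and 3 in tumour 4, and 1 well held 498. In tumour 4 a smaller share of Hoxc wells than of gut-code wells held Spp1 (7.69% against 14.04%). Myoc (5.24), a secreted glycoprotein of the eye's drainage tissue, Mest (4.73), an imprinted gene of mesoderm, Thbs4, a matrix protein of tendon (4.24, with 198 of 467 transcripts in 1 well), Akr1c14 (4.66) and C77370 (4.51) were also higher. With few transcripts on the other side, Adh7, a retinol and alcohol dehydrogenase, had 78 against 1 (ratio 89.6, counting interval 15.6 to 3585), Hc, complement component C5, 77 against 1 (88.5, 15.4 to 3539) and Trim9 38 against 1 (43.7, 7.38 to 1769).

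In the other direction, Dach1, a transcriptional cofactor, Niacr1, a receptor for hydroxy acids, and Col6a5, a collagen VI chain, had no transcript in the 130 Hoxc wells and 56, 52 and 39 in the gut-code wells, which makes them at least 16.2-fold, 15.1-fold and 11.3-fold lower against a floor of 3 counts over the side. Rgs17 had 1 transcript against 79 (ratio 68.8, counting interval 11.99 to 2750), and the forkhead gene Foxq1 (45.2, 7.77 to 1821), the transporter Slco4a1 (40.03, 6.84 to 1615), its relative Slco1a5 (41.8, 11.2 to 350) and the receptor of the gut hormone GLP-2, Glp2r (44.4, 7.62 to 1787), had 1 or 2.

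Adventitial progenitors are the fibroblasts around vessels. Of 22 tested genes of these cells 4 were higher in Hoxc wells, 1 lower and 17 did not pass (median 0.33). Pi16, a marker of these cells, stood at 3.07, 2.01 and 4.33 against 0.693, 1.07 and 1.71 (1.54, SE 0.23, adjusted p = 0.0063, edgeR), and Cd34, a surface sialomucin, at 3.45, 7.73 and 6.99 against 1.86, 4.12 and 3.84 (0.98, SE 0.14). The Cd34 values overlapped between the sides across tumours but not within a tumour. Efhd1 (3.24) and Mfap5 (0.89) were higher and Procr (-1.80) lower. Of 19 lipid and retinoid genes 3 were higher, among them Apod, a lipocalin, at 3.89, 8.66 and 7.83 against 1.70, 0.686 and 0.370 (3.13), and Rarres2 (1.14), and the prostaglandin synthases Ptgs1 (-2.38) and Ptges (-1.17) were lower. Of 5 IGF binding proteins, Igfbp5 (-1.81) and Igfbp7 (-0.72) were lower and Igfbp6 (0.76) higher.

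Every well had passed the gate on Dcn and Col1a1, so fibroblast markers on both sides were largely fixed by the rule. Of the 7 other fibroblast markers 1 passed the test: Thy1, a surface glycoprotein, stood at 13.7, 11.9 and 12 per 10000 in Hoxc wells against 6.46, 5.38 and 6.42 (1.14, SE 0.14, adjusted p = 0.0029, edgeR), and these 7 summed to 316 to 422 per 10000 on the Hoxc side and 310 to 374 on the gut-code side. Markers of other cells were low on both. Per 10000 transcripts, endothelial markers summed to 0.271 to 0.544 against 0.0742 to 0.258, epithelial markers to 0 to 0.166 against 0.0495 to 0.180 and immune markers to 0.0553 to 0.111 against 0.0423 to 0.142. Smooth muscle markers summed to 2.39 to 4.37 against 3.13 to 4.89, pericyte markers to 2.71 to 6.57 against 3.11 to 4.59, and skeletal muscle markers to 0.912 to 2.24 against 0.260 to 0.930. Endothelial sums were higher on the Hoxc side with no overlap, and the skeletal muscle ranges met only at their ends. Their part in the differences above was not tested. Of 20 tested markers of smooth muscle, pericytes, endothelium, skeletal muscle, bone and cartilage and interstitial cells of Cajal, 2 passed, Sox9 (-2.20) and Etv1 (-1.56), both lower. Of 16 cell cycle genes, whose median was 1.37, Plk1 passed (2.24), found in 9 Hoxc and 6 gut-code wells, and of 23 genes of dissociation stress Ier3 passed (-0.90). Of 18 genes of glycolysis and hypoxia the oxygen sensor Egln3 was lower (-2.96), and of 10 genes of the p53 response and senescence Igfbp7 and the kinase Plk2 (-1.41) were lower. Of 5 tested markers of skin fibroblasts and dermal papilla, Mest was higher and the WNT effector Lef1 lower (-3.52). Slpi, a protease inhibitor named as a marker of antigen-presenting fibroblasts, was lower (-3.87) and was the 1 gene of that list that could be tested.

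Within each side the wells differed among themselves. The following groups were set after the data had been seen and are given without a test. Gut-code wells with both Foxf2 and Nkx2-3 (71 wells) had Adamdec1 at 19.5 ± 4.39 per 10000 (SD, n = 3 tumours), against 2.46 ± 1.05 with Foxf2 alone (51 wells) and 3.05 ± 0.400 with Nkx2-3 alone (69 wells). Mmp13 stood at 41.7 ± 22.4, 51.4 ± 24.3 and 10.3 ± 8.38 in the same 3 groups, so its lowest mean was in the wells with Nkx2-3 alone. Hoxd13 was highest there, at 1.02 ± 0.159, against 0.552 ± 0.0937 with both genes and 0.408 ± 0.224 with Foxf2 alone. Depth was not matched between these groups, and a well in which both genes were detected needed at least 2 transcripts of the code.

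Pairs of genes led by the gut-code side were found in the same wells to different degrees. Over 55 pairs of 11 such genes, the number of gut-code wells with both was 0.646 to 1.78 times the number expected from their separate shares, and above it for 38 pairs. Adamdec1 and Wnt4 were found together in 74 of 191 wells (50.4 expected), and Mmp13 and Mmp10 in 52 (39.6 expected). Adamdec1 and Mmp13 were found together in 47 wells, close to the 51.8 expected. Pairs of a niche signal and a protease lay on either side of the expected number. Mmp10 and Bmp7 shared 44 wells (32.6 expected), Mmp13 and Bmp7 shared 43 (43.8 expected) and Mmp13 and Bmp5 shared 32 (36.7 expected). Depth, which all genes of a well share, was not matched in these counts.

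On the Hoxc side, wells grouped by their Hoxc genes had like means of Tbx15: 0.479 ± 0.0478 per 10000 in wells with Hoxc10 alone (38 wells), 0.442 ± 0.345 with Hoxc10 and another Hoxc gene (47 wells) and 0.431 ± 0.0706 with other Hoxc genes alone (45 wells). Tumours differed here: with Hoxc10 and another gene Tbx15 stood at 0.0806, 0.479 and 0.768 in tumours 2 to 4. Hoxa5 stood, in the same order of groups, at 0.0425 ± 0.0408, 0.268 ± 0.101 and 0.189 ± 0.185. In wells with 3 or more Hoxc transcripts (53 wells) Hoxd13 stood at 0.0262 ± 0.0271 and Tcf21 at 0.0326 ± 0.0120, against 0.563 ± 0.716 and 0.373 ± 0.298 in wells with 1 (37 wells). The tumour 3 values in wells with 1 rest on 7 wells. Other genes led by the gut-code side had the opposite order, with Pitx1 at 0.0553 ± 0.0489 in wells with 3 or more and 0.0295 ± 0.0275 in wells with 1, and Mmp13 at 0.765 ± 0.273 and 0.488 ± 0.0906.

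Wells outside the 2 sides had means between those of the sides for Tbx15, Tcf21, Mmp13, Thy1 and Ctla2a, but not for every named gene. In the 27 wells with both codes Tbx15 stood at 0.286 ± 0.255 per 10000 and Tcf21 at 0.424 ± 0.278 (n = 3 tumours), and in tumours 2 to 4 the wells with neither code had 0.130 ± 0.117 and 1.20 ± 0.364. Mmp13 stood at 11.6 ± 12.9 with both codes and 19.2 ± 11 with neither, and Thy1 at 10.01 ± 6.64 and 6.5 ± 1.35. Ctla2a stood at 1.40 ± 1.65 and 0.692 ± 0.385 there, nearer to the gut-code side. Among genes outside the range of the sides, Pi16 stood at 0.868 ± 0.545 with both codes (means 3.135 on the Hoxc side and 1.158 on the gut-code side). The matrix gene Cilp stood at 13.6 ± 4.40 with neither code (7.19 and 3.85).

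The 21 gut-code wells of tumour 1 carried the gut mesoderm genes with little or none of Mmp13 and Mmp10. They had Adamdec1 at 18.6, Tcf21 at 7.92, Pitx1 at 3.43 and Foxf1 at 2.26 per 10000, and Mmp13 and Il1rl1 at 0, Mmp10 at 0.857, Il11 at 0.0685 and Ereg at 0.137. With 1 tumour there is no error for these values, and the plate differed in run and quality as given above.

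In the 250 bases before their starts, called genes held the AP-1 motif more often than tested genes at large. A promoter was matched for 6083 of the 8009 tested genes, and 5.57% of these held TGANTCA. The share was 15.4% of 123 matched genes that were higher in Hoxc wells and 12.4% of 169 that were lower. The HOX with PBX motif was held by 4.42% of tested genes, 4.88% of the higher and 10.1% of the lower ones. The GC box was held by 68.2%, 55.3% and 58.6%. No test was run on these shares, and a gene with several starts was counted if any of them held the motif.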

How the data were processed

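Cells sorted as cancer-associated fibroblasts were read by SORT-seq with CEL-Seq2 libraries, 1 plate of 384 wells for each of 4 tumours, per the labels' protocols. BWA and mm10 are named in the submitters' processing notes; their versions and the program that counted transcripts are not stated there. The authors deposited expected counts, which are estimated transcripts per gene and well: every value above 0 lies within 0.00498 of a whole number of tags after correction for saturation of the tag pool. The tables hold 16305 genes. Wells carry the same numbers in every plate.

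Wells were chosen as the report states, with spike-ins left out. Sides were summed per tumour, a side needing 10 wells, and rounded to whole counts. edgeR 4.0.16 (R 4.3.3) was run with TMM scaling, filterByExpr, the tumour as a block and the quasi-likelihood test. Both sides come from the same tumour, which is the source of the pairing. Genes of the rule were left out of the p-value adjustment (8 passed the filter). The step was tested on simulated data. DESeq2 1.42.0 was an alternative, beside other filters, scalings and well rules. Levels are summed transcripts per 10000 of a side's total, log2 fold changes are the fit's, and SD is over tumours.

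Named genes were the tested Hoxa, Hoxb and Hoxd genes, called members of the 2 factor lists, up to 12 genes per direction with the largest change among those called, alike in every tumour and with at least 30 transcripts on the higher side (unnamed models skipped), and up to 4 called members per direction of each other list. The members, lists and tests were chosen with earlier results of these data known. Older symbols are given as in the files. Some named genes are not reported here. Promoters of 87 of 113 named genes were matched by symbol in the RefSeq table for GRCm38.p6.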

Additional observations from a re-analysis of the deposited data

Results flagged for a closer look

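In 14 of 113 named genes, the level in the gut-code wells of 1 tumour stood far from the other 3 tumours by Dixon's test. Its rate of about 1 in 20 by chance holds for normally distributed values. A gene with 1 transcript in 1 tumour and 0 in the others is always flagged, so the 14 are not set against that rate. In tumour 1 the flagged genes were Hoxd10 (0.548 per 10000, others 0.116 to 0.186), Mmp13 (0 against 27.3 to 28.7), C4b (9.53 against 1.39 to 2.02), Serpine2 (0.377 against 5.99 to 6.37) and Rarres2 (5.86 against 1.92 to 2.21). In tumour 2 they were Hc (0.0124 against 0, 1 transcript), Thbs4 (0.247 against 0 to 0.0356), Cd34 (1.86 against 3.84 to 4.18) and Cxcl10 (1.29 against 0.0423 to 0.151). In tumour 3 they were Bmp7 (2.18 against 0.891 to 0.953), Hgf (0.490 against 0.206 to 0.235) and Col4a5 (0.588 against 0.274 to 0.297), and in tumour 4 Adh7 (0.0106 against 0, 1 transcript) and Plk1 (0.116 against 0 to 0.0178).

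Positional codes were also found outside the kept wells. Of 53 wells that had enough transcripts but too little Dcn and Col1a1, 15 held a Hoxc transcript and 16 held a Foxf2 or Nkx2-3 transcript.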

How the results depend on the processing

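The 178 higher and 238 lower genes became 114 and 162 with DESeq2 and 439 and 508 with no filter on low counts. In wells thinned to 3000 tags they were 68 and 83 of 1218 tested genes. There the ratio of observed to expected wells with both codes was 0.0745, from 1 such well in tumour 2 and none in tumours 3 and 4. With no replicate block, so without pairing the sides within a tumour, 135 genes were higher and 196 lower. Leaving out 1 tumour at a time gave 1 to 380 higher and 1 to 388 lower genes. The value of 1 came without tumour 3, which left 1 residual degree of freedom, as leaving out tumour 2 or 4 did; 822 genes then had an unadjusted p under 0.05, and the cause was not tested. Tumour 1 was not in the fit, so leaving it out repeated the main fit. That alternative is among the 21 counted next, and its values were the same by construction. Over 113 named genes and 21 alternatives, 1996 of 2235 values kept direction and side of the threshold, 235 kept direction but lost the threshold (without tumour 3, 107 of 109 called genes), and 4 reversed. All 4 were Hoxa10, between -0.18 (without tumour 3) and 0.64 over the single left-out tumours, -0.095 without tumour 4, -0.23 with 2 or more transcripts of the own code and -0.0060 with the gut-code side by Foxf2 alone; the cause was not tested. Sides rest on few transcripts per well, so a well with neither code at this depth is not shown to lack it.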
